A study of Mus musculus with 16 samples.

Results

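The 38 genes described here are the complex I family of the NADH:ubiquinone oxidoreductase symbols in a matrix of mouse mammary adipose RNA-Seq. They were chosen by symbol alone: a row was a member where Nduf was followed by a, ab, b, c, s or v and then by a number. The rule picked 38 of the 23179 genes listed and used no measured value. It left out the Ndufaf genes, which encode assembly factors. Of the 38, 36 encode subunits of respiratory complex I. Ndufa4, whose product is now placed in cytochrome c oxidase (complex IV), and its paralog Ndufa4l2 carry the family name and are described apart. The 36 subunits were ordered by their place in the enzyme, as 7 core subunits, 9 accessory subunits of the matrix arm, 9 of the proximal membrane arm, 10 of the distal membrane arm and the acyl carrier protein Ndufab1. The genes lie on 15 chromosomes. The subunits that the mitochondrial genome encodes were not analysed here.

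Complex I is the L-shaped enzyme of the inner mitochondrial membrane that takes electrons from NADH, passes them along a chain of iron-sulfur clusters to ubiquinone and pumps protons. Its core subunits carry out this chemistry and its accessory subunits surround and stabilize them. In adipose tissue, oxidative capacity is known to be high in brown and beige adipocytes, which burn fat to make heat, and lower in white adipocytes, which store it.

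The 16 libraries came from female C57BL/6N mice (C57BL/6NCrl in the study's methods) of wild-type genotype, 4 per group. Controls (CON-LFD) received the low-fat control diet D12450J throughout. Mice given diet D12492, with 60% fat, became obese (DIO) and then either stayed on that diet (DIO-HFD), changed to low-fat food (DIO-LFD), or had vertical sleeve gastrectomy and low-fat food combined (DIO-VSG). Animals of the other 3 groups had sham surgery. All groups carried a tumor, because 22 weeks after the diets began E0771 mammary cancer cells were injected into the 4th mammary fat pad. The tissue sequenced was the pad of the opposite side at the end of tumor growth, so no library comes from a mouse without a tumor, and gastrectomy was never given without the change of diet. Each library has a number of its own in the labels, which fits 1 mouse per library but is not called an animal number there, and p-values measure the spread between libraries.

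Each library held 46907377 to 57610899 reads assigned to genes, and the member with the fewest reads had 142 in its lowest library, so counting error was small beside the spread between libraries. Levels are given as normalized counts, that is, reads divided by a size factor of the library. Labels of the libraries also name the E0771 line and a cancer cell type, and the data were checked against adipocyte markers: all 12 were above 0 in every library, and their sum was 660154 to 2207756 normalized counts. Libraries differed in other cell markers before any comparison. The sum of 10 B cell markers was 387 to 82845 normalized counts in CON-LFD libraries, 1278 to 109750 in DIO-HFD, 19708 to 44978 in DIO-LFD and 74866 to 86935 in DIO-VSG. The sum of 12 skeletal muscle markers was 660 to 169605 over all libraries, and it was highest in DIO-LFD replicate 4 (169605), CON-LFD replicate 4 (39024) and DIO-VSG replicate 2 (28987). In such bulk tissue, fewer cells of a type and less RNA per cell cannot be told apart.

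The lowest group mean of 37 of the 38 members was that of DIO-HFD, the mice that stayed on the high-fat diet. The exception was Ndufa4l2, which was highest there. Reads of the 36 subunits made up 0.219% ± 0.0538 (SD, n = 4) of all reads in CON-LFD, 0.172% ± 0.0149 in DIO-HFD, 0.224% ± 0.0188 in DIO-LFD and 0.215% ± 0.0358 in DIO-VSG. The highest DIO-HFD library (0.183%) was below the lowest of DIO-LFD (0.2%) and of DIO-VSG (0.185%), whereas CON-LFD ranged from 0.175% to 0.295% and overlapped it. The separation from DIO-VSG depended on the scale: as summed normalized counts, DIO-HFD replicate 3 (99804) was above DIO-VSG replicates 1 (93651) and 2 (91421). None of these differences passed the test across all genes for any single member, as the comparisons describe in turn.

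**Figure D1:**
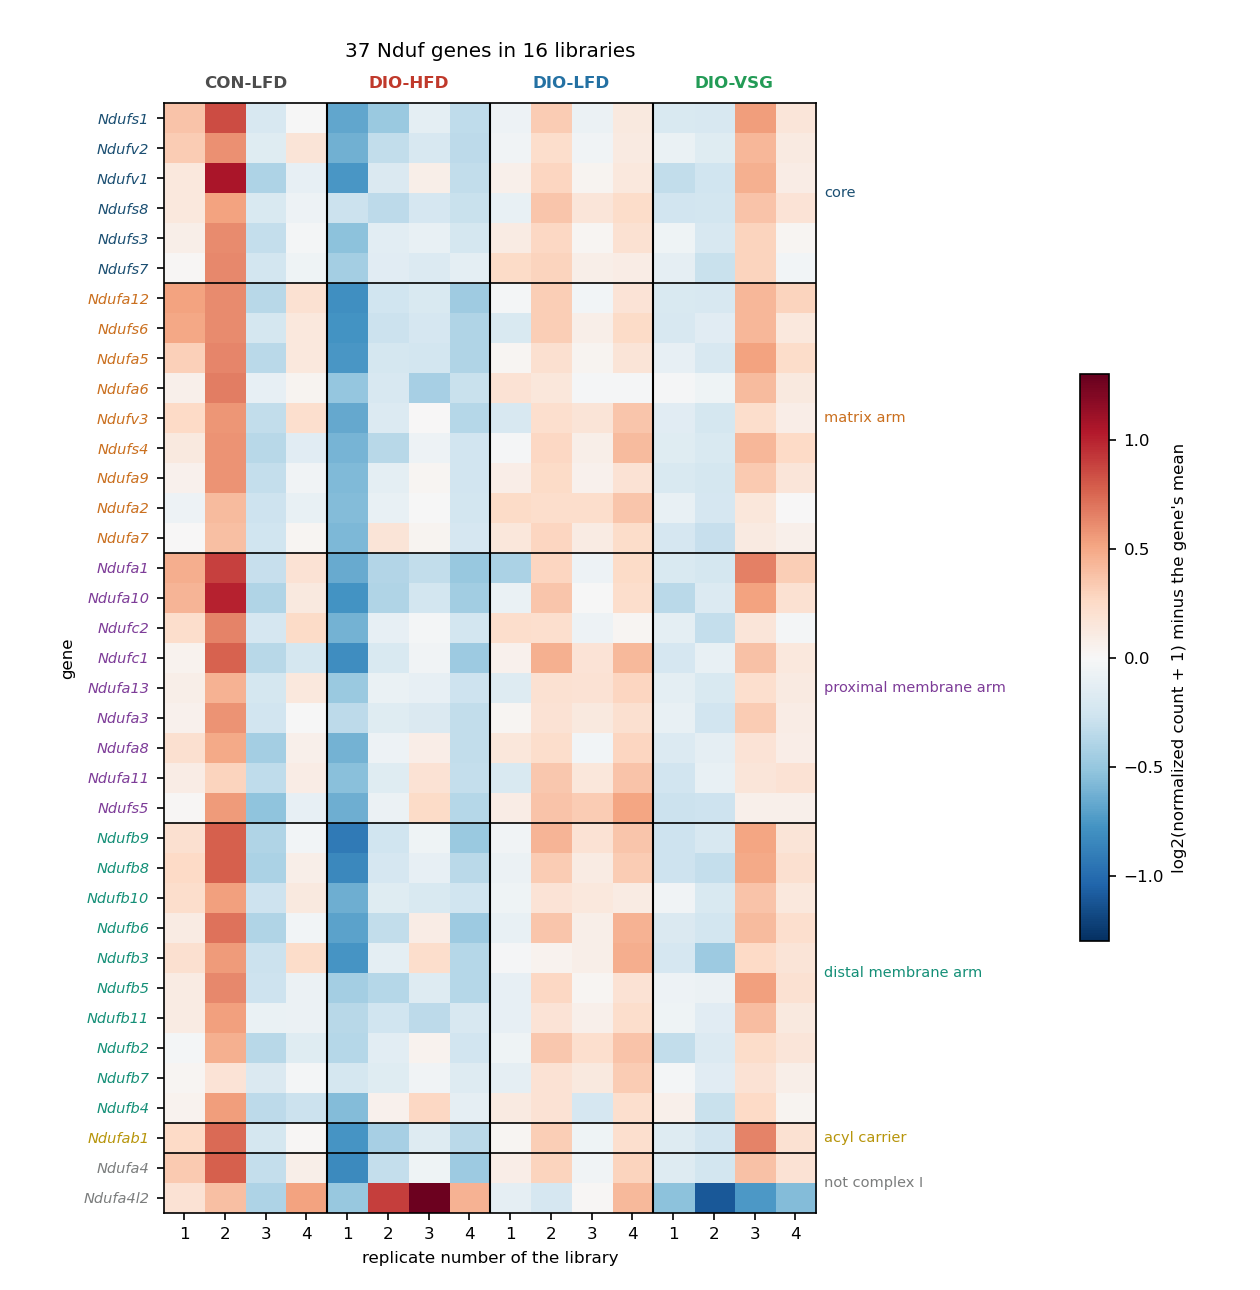
Levels of 37 of the 38 genes (rows, by place in complex I) in the 16 libraries (columns, by group and replicate number), as log2(normalized count + 1) minus the mean of the gene over all libraries. DIO-HFD replicate 1 is the bluest column and CON-LFD replicate 2 the reddest, and Ndufa4l2 in the bottom row has a pattern of its own.

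The first comparison, DIO-HFD against CON-LFD, asks how continued high-fat feeding differs from lean controls. 37 of 38 members were lower in DIO-HFD, where 47.3% of all 21218 genes tested were lower. Their median log2 fold change was −0.44, or −0.44 over the 36 subunits, beside 0.02 over all genes. It ranged from −0.77 for Ndufa1 to 0.36 for Ndufa4l2. None passed limma at an adjusted p of 0.05 (adjusted p 0.204 to 0.899), a threshold that 0.0377% of all genes passed in either direction. At an unadjusted p under 0.05, 21 members were lower, against 7.66% of all genes. In 5 members, Ndufa1, Ndufv2, Ndufa6, Ndufb11 and Ndufs8, every DIO-HFD library was below every CON-LFD library, which held for 3.0% of all genes. The count of 21 became 11 without CON-LFD replicate 2, when the median was −0.25, and 13 without DIO-HFD replicate 1, when it was −0.34. The shares of all genes in either direction were then 8.53% and 11.2%, beside 12.9% with every library. Standard errors of the subunits' fold changes were 0.11 to 0.27 (median 0.19).

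Members of every part of the enzyme had the same sign. The median in DIO-HFD against CON-LFD was −0.47 for the core, −0.49 for the matrix arm, −0.35 for the proximal membrane arm and −0.44 for the distal membrane arm, and Ndufab1, the mitochondrial acyl carrier protein, was at −0.62. At an unadjusted p under 0.05 were 4 of 7 core subunits, 5 of 9 of the matrix arm, 5 of 9 of the proximal arm and 5 of 10 of the distal arm.

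The second comparison, DIO-LFD against DIO-HFD, asks what went with weight loss by diet. It used the same DIO-HFD libraries as the first, so the direction of one is tied to the other. 37 members were higher in DIO-LFD, where 51.6% of all genes were higher. The median log2 fold change was 0.44 beside 0.01 over all genes, and the 36 subunits lay between 0.17 and 0.66. None passed limma after adjustment (adjusted p 0.436 to 0.927), and neither did any gene of the table (0.0%). At an unadjusted p under 0.05, 28 members were higher, against 5.37% of all genes. In 23 members, Ndufa4 and 22 subunits, every DIO-LFD library was above every DIO-HFD library, against 3.01% of all genes. The medians by part were 0.44 for the core, 0.49 for the matrix arm, 0.39 for the proximal arm, 0.40 for the distal arm and 0.55 for Ndufab1. The count at an unadjusted p under 0.05 was 8 without DIO-HFD replicate 1, 11 without DIO-LFD replicate 2, 14 without DIO-LFD replicate 4 and 18 without DIO-HFD replicate 4, beside 5.95% to 8.09% of all genes in either direction, while 37 members were higher in each.

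The third comparison, DIO-VSG against DIO-HFD, asks the same of weight loss after surgery and again shares the DIO-HFD libraries. 37 members were higher in DIO-VSG, where 52.5% of all genes were higher, with a median of 0.34 beside 0.02 over all genes. None passed limma after adjustment (adjusted p 0.243 to 0.841), nor did any gene of the table (0.0%). At an unadjusted p under 0.05, 11 members were higher, against 5.05% of all genes, and Ndufa4l2 was lower. DIO-VSG lay above DIO-HFD in every library for 7 members, Ndufa1, Ndufs6, Ndufv2, Ndufa5, Ndufa6, Ndufb5 and Ndufb11, against 2.37% of all genes. The medians by part were 0.30 for the core, 0.40 for the matrix arm, 0.24 for the proximal arm, 0.38 for the distal arm and 0.54 for Ndufab1. The 12 members at an unadjusted p under 0.05 in either direction became 2 without DIO-VSG replicate 3, 5 without DIO-VSG replicate 4, 5 without DIO-HFD replicate 1 and 19 without CON-LFD replicate 2. The shares of all genes at that p in either direction were 7.48%, 11.6%, 27.6% and 13.9%, beside 13.2% with every library, so in the first 3 of these cases the members' share was near or under that of all genes.

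**Figure D2:**
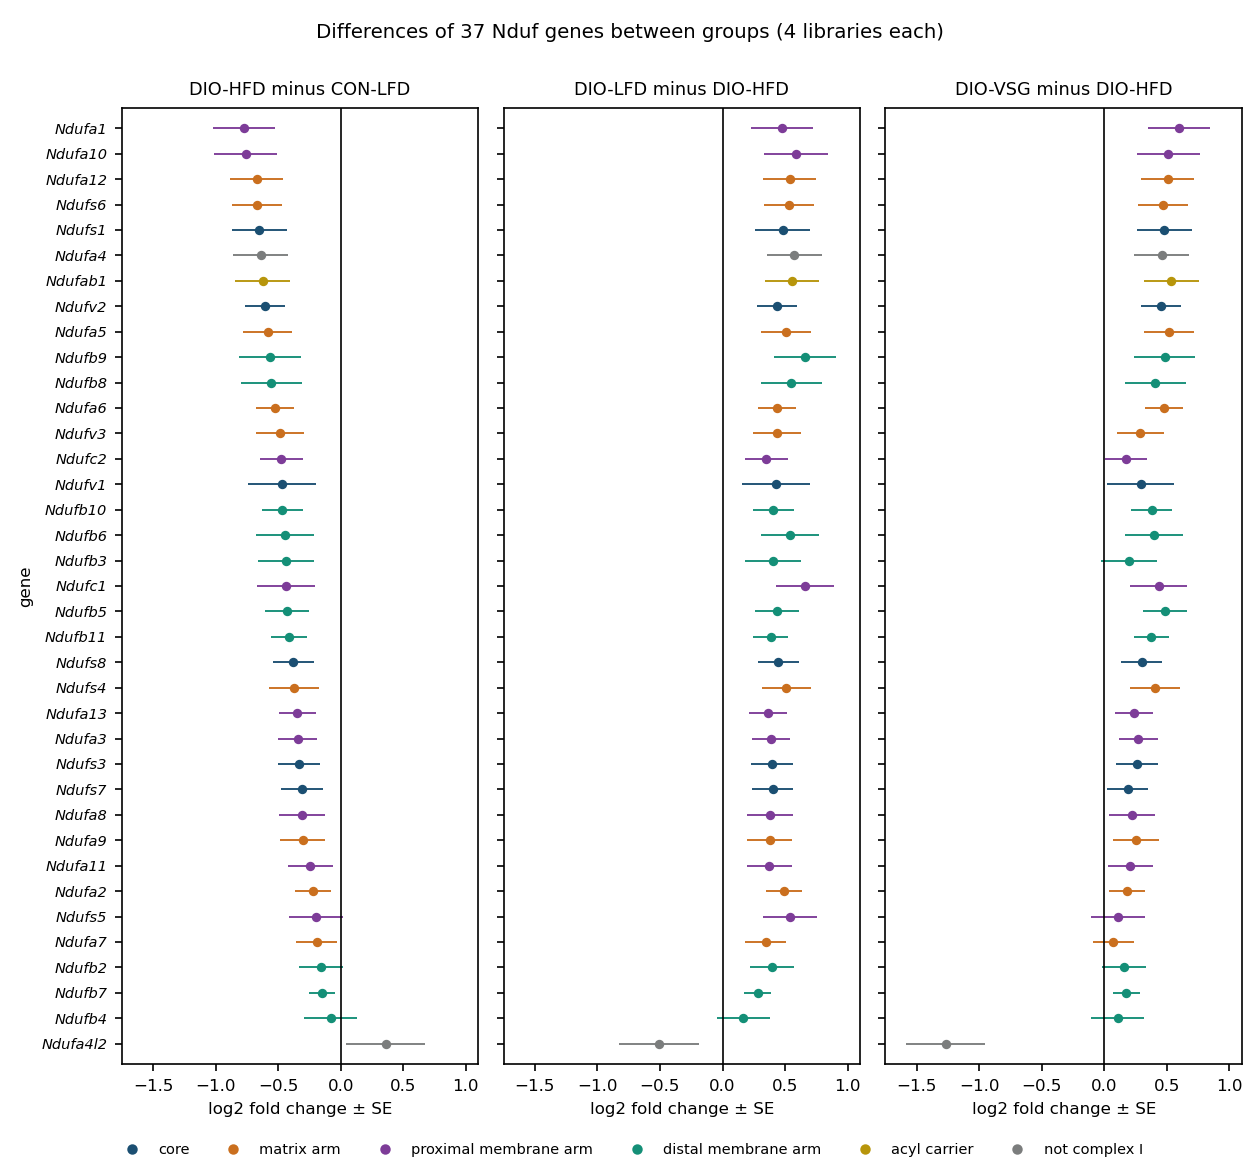
Log2 fold change of 37 of the 38 genes (points, coloured by place in complex I, with bars of 1 SE) in DIO-HFD minus CON-LFD, DIO-LFD minus DIO-HFD and DIO-VSG minus DIO-HFD, 4 libraries per group. Points of 36 genes lie left of 0 in the first panel and right of 0 in the other panels, which share the DIO-HFD libraries, and Ndufa4l2 lies on the other side in each.

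DIO-HFD was also set against the mean of the 3 groups fed the low-fat diet. 37 members were lower in DIO-HFD, where 51.3% of all genes were lower, with a median of −0.40 beside −0.01 over all genes. 28 members were lower at an unadjusted p under 0.05, against 6.66% of all genes, and Ndufa4l2 was higher. These 29 became 15 without DIO-HFD replicate 1, beside 15.1% of all genes in either direction. None passed limma after adjustment (adjusted p 0.181 to 0.845), and no gene of the table did (0.0%). A test for any difference among the 4 groups gave 12 members at an unadjusted p under 0.05, against 12.7% of all genes. The lowest adjusted p of a member was 0.346, and 0.0% of all genes passed after adjustment.

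The groups fed the low-fat diet were closer to each other. Between DIO-LFD and CON-LFD, 19 members were higher and 19 lower, where 53.1% of all genes were higher, and the median was 0.01. No member reached an unadjusted p of 0.05 there, against 3.23% of all genes that were higher at that p, and none passed limma after adjustment (0.00471% of all genes did). Between DIO-VSG and DIO-LFD, 33 members were lower in DIO-VSG, where 52.7% of all genes were lower, with a median of −0.13. Only Ndufa4l2 was at an unadjusted p under 0.05, against 5.41% of all genes that were lower at that p, and no gene of the table passed after adjustment (0.0%). Between DIO-VSG and CON-LFD, 34 were lower in DIO-VSG, where 52.2% of all genes were lower, with a median of −0.09. Only Ndufa4l2 was again at an unadjusted p under 0.05, against 7.55% of all genes that were lower at that p, and no gene passed after adjustment (0.0%). These counts of direction turned with single libraries: without CON-LFD replicate 2, 33 members were higher in DIO-LFD than in CON-LFD and 9 were lower in DIO-VSG than in CON-LFD, and without CON-LFD replicate 3, 8 were higher in DIO-LFD. Without DIO-VSG replicate 2, 22 were lower in DIO-VSG than in CON-LFD.

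Of the 7 core subunits, 6 are described one by one, with gene positions on GRCm38 from its GENCODE annotation. Ndufv1 (chr19:4007384-4012806, minus strand) binds the FMN that first accepts electrons from NADH. It was read at 6004, 11418, 4144 and 5063 normalized counts in CON-LFD replicates 1 to 4, at 3229, 4815, 5775 and 4373 in DIO-HFD, at 5722, 6658, 5611 and 6024 in DIO-LFD, and at 4376, 4557, 7521 and 5835 in DIO-VSG. CON-LFD replicate 2 was the highest library by far, and each group overlapped DIO-HFD. The log2 fold change from CON-LFD to DIO-HFD was −0.47 ± 0.27 (SE; limma adjusted p = 0.486).

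Ndufv2 (chr17:66078638-66101559, minus strand), an iron-sulfur partner of Ndufv1, had the lowest adjusted p of the 38 in that comparison. Its normalized counts were 4808, 5749, 3413 and 4287 in CON-LFD, 2472, 3049, 3295 and 3014 in DIO-HFD, 3695, 4467, 3684 and 4133 in DIO-LFD, and 3584, 3426, 5157 and 4121 in DIO-VSG. All 12 libraries of mice on the low-fat diet were above all of DIO-HFD. The difference from CON-LFD to DIO-HFD was −0.61 ± 0.16 on the log2 scale (adjusted p = 0.204), from DIO-HFD to DIO-LFD 0.44 (adjusted p = 0.483) and from DIO-HFD to DIO-VSG 0.45 (adjusted p = 0.305). Without CON-LFD replicate 3 the first became −0.74 with an adjusted p of 0.0498, the single call made for a member when 1 library was left out. In that fit 0.644% of all genes were called, beside 0.0377% with every library.

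Ndufs1 (chr1:63143596-63176833, minus strand) carries several of the iron-sulfur clusters of the electron-input module. Its normalized counts were 7511, 10490, 5036 and 5799 in CON-LFD, 3657, 4169, 5341 and 4634 in DIO-HFD, 5573, 7331, 5530 and 6368 in DIO-LFD, and 5091, 5057, 8490 and 6500 in DIO-VSG. DIO-LFD lay above DIO-HFD in every library, whereas CON-LFD and DIO-VSG overlapped it through DIO-HFD replicate 3. The log2 fold changes against CON-LFD, to DIO-LFD and to DIO-VSG were −0.65, 0.48 and 0.48 (SE 0.22; adjusted p = 0.257, 0.572 and 0.377).

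Ndufs7 (chr10:80249121-80256794, plus strand) holds the last iron-sulfur cluster before ubiquinone. Its normalized counts were 2246, 3416, 1879 and 2140 in CON-LFD, 1631, 2006, 1960 and 2041 in DIO-HFD, 2643, 2708, 2339 and 2373 in DIO-LFD, and 2048, 1819, 2716 and 2170 in DIO-VSG. It had the smallest core difference from CON-LFD to DIO-HFD, −0.31 ± 0.16 (adjusted p = 0.45), and DIO-LFD lay above DIO-HFD in every library.

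Ndufs3 (chr2:90894634-90904827, minus strand) is a core subunit of the module that joins the matrix arm to the membrane. It was at 3827, 5560, 2941 and 3577 normalized counts in CON-LFD libraries, 2521, 3304, 3408 and 3116 in DIO-HFD, 3910, 4388, 3701 and 4189 in DIO-LFD, and 3511, 3152, 4444 and 3696 in DIO-VSG. DIO-LFD did not overlap DIO-HFD (0.40 ± 0.17, adjusted p = 0.539) and the other groups did. Ndufs8 (chr19:3908863-3912774, minus strand) carries a pair of iron-sulfur clusters. Its normalized counts were 2096, 2740, 1664 and 1817 in CON-LFD, 1577, 1511, 1635 and 1559 in DIO-HFD, 1787, 2448, 2128 and 2255 in DIO-LFD, and 1603, 1620, 2474 and 2163 in DIO-VSG. The 4 DIO-HFD libraries were within a narrow range that lay below all CON-LFD and DIO-LFD libraries, with log2 fold changes of −0.38 and 0.45 (SE 0.17; adjusted p = 0.358 and 0.483).

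**Figure D3:**
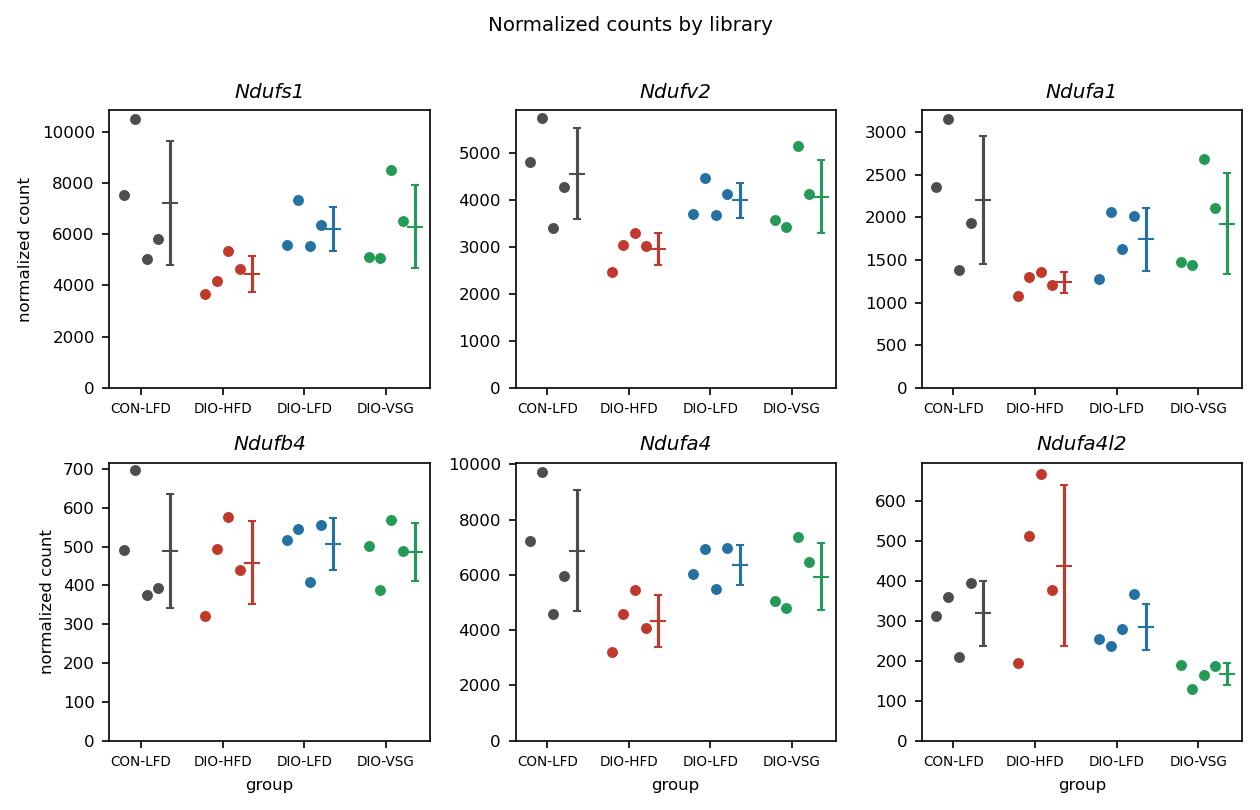
Normalized counts of 6 members in each library (points, by group, replicates in order) with the group mean and SD beside them as a bar; vertical scales start at 0 and differ between panels. The mean of DIO-HFD is the lowest for 5 of the genes and the highest for Ndufa4l2, whose DIO-VSG libraries (128 to 189) are the lowest.

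Since the subunits varied together, the starts of their genes were searched for letters of factors known to act on mitochondrial genes. RefSeq promoter windows on GRCm38.p6, from 250 bases before to 50 bases after the annotated start, were found for 33 of the 38 members (35 windows), and not for Ndufa2, Ndufa4l2, Ndufb9 or Ndufs1. Both strands were searched. The YY1 letters AAGATGGC were in 7 of the 35 windows of members (Ndufa3, Ndufa9, Ndufb8, Ndufc1, Ndufs4, Ndufs6 and Ndufs7) and in 2.75% of all 32851 windows. These letters contain ATG, and as the windows run past the start of transcription a match may cover a start codon, which was not determined. The NRF1 letters GCGCATGC were in 8.57% against 2.71% (Ndufa6, Ndufa8 and Ndufa11), the CREB letters TGACGTCA in 8.57% against 1.79% (Ndufa10, Ndufa11 and Ndufb2), the ETS family (GABP) letters CCGGAAG in 11.4% against 8.86%, and the Sp1 letters GGGCGG in 45.7% against 35.7%. The ERR letters TCAAGGTCA were in 0.0% against 0.423%. These shares are descriptions of letters, not of binding, and were not tested.

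The windows of the 4 core subunits that held a match are shown because the core carries out the chemistry of the enzyme. Each runs 5′ to 3′ on the strand of the gene, and capitals mark the matched letters on either strand. Ndufs3 (chr2:90904672-90904971, minus strand) held 2 Sp1 and 2 ETS matches, of which 1 of each overlap. Ndufs7 (chr10:80249199-80249498, plus strand) held the YY1 letters, Ndufs8 (chr19:3912725-3913024, minus strand) 1 ETS match, and Ndufv2 (chr17:66101510-66101809, minus strand) 2 Sp1 matches.
Ndufs3: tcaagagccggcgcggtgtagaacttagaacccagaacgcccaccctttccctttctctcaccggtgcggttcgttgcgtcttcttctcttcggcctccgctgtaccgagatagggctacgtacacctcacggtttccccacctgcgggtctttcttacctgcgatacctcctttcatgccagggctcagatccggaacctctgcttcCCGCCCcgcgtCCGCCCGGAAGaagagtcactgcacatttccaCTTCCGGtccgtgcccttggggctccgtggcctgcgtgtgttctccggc
Ndufs7: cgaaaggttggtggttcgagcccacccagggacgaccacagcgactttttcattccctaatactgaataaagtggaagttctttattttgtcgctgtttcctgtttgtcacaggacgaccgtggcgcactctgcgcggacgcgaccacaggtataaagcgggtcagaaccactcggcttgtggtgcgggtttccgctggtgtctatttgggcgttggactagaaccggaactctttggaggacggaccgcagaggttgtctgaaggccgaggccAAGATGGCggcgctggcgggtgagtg
Ndufs8: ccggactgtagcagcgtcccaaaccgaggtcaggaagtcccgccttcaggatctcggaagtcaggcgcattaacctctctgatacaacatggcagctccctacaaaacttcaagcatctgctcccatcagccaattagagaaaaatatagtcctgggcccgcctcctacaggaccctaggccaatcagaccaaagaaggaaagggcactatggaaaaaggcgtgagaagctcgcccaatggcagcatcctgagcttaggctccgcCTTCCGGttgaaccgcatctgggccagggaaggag
Ndufv2: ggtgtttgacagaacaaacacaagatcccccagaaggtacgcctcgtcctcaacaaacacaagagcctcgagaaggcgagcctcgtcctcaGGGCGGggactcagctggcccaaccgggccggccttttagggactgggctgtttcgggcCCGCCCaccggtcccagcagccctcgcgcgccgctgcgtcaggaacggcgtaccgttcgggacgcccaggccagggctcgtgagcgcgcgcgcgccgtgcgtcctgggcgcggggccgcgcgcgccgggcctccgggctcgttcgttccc

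Among the accessory subunits, those with the most negative difference from CON-LFD to DIO-HFD were Ndufa1, Ndufa10 and Ndufa12. Ndufa1 (chrX:37187588-37191163, minus strand), a small membrane subunit needed for assembly, was at 2353, 3151, 1378 and 1930 normalized counts in CON-LFD libraries, 1078, 1304, 1362 and 1201 in DIO-HFD, 1275, 2065, 1625 and 2011 in DIO-LFD, and 1473, 1444, 2678 and 2111 in DIO-VSG. DIO-HFD was below every CON-LFD and DIO-VSG library and overlapped DIO-LFD replicate 1. The log2 fold changes were −0.77, 0.48 and 0.60 in the first 3 comparisons (SE 0.25; limma adjusted p = 0.249, 0.658 and 0.345).

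Ndufa10 (chr1:92439010-92473860, minus strand), an accessory subunit of the proximal membrane arm on its matrix side, was at 7920, 11727, 4473 and 6373 normalized counts in CON-LFD libraries, 3399, 4475, 4957 and 4282 in DIO-HFD, 5493, 7483, 5814 and 6861 in DIO-LFD, and 4600, 5156, 8377 and 6691 in DIO-VSG. DIO-HFD did not overlap DIO-LFD and overlapped the other groups, and its difference from CON-LFD was −0.76 ± 0.25 (adjusted p = 0.254). Ndufa12 (chr10:94198720-94221443, plus strand) is an accessory subunit of the matrix arm that joins late in assembly. It was at 3010, 3223, 1636 and 2408 in CON-LFD, 1210, 1761, 1825 and 1527 in DIO-HFD, 2060, 2622, 2053 and 2374 in DIO-LFD, and 1830, 1821, 2827 and 2564 in DIO-VSG. DIO-LFD lay above DIO-HFD in every library, and the difference from CON-LFD was −0.67 ± 0.21 (adjusted p = 0.247).

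At the other end of the order were Ndufb7 and Ndufb4, both of the distal membrane arm. Ndufb7 (chr8:83566671-83571626, plus strand), which faces the intermembrane space, had the tightest libraries: 2345, 2598, 2020 and 2254 normalized counts in CON-LFD libraries, 1959, 2056, 2226 and 2049 in DIO-HFD, 2121, 2613, 2503 and 2893 in DIO-LFD, and 2259, 2079, 2611 and 2433 in DIO-VSG. All groups overlapped DIO-HFD, and the differences were −0.15, 0.28 and 0.17 (SE 0.11; adjusted p = 0.592, 0.491 and 0.434). Ndufb4 (chr16:37647170-37654453, minus strand) was at 492, 697, 376 and 393 normalized counts in CON-LFD libraries, 322, 495, 576 and 441 in DIO-HFD, 518, 545, 410 and 555 in DIO-LFD, and 501, 389, 570 and 488 in DIO-VSG. Its groups overlapped throughout. Its difference from CON-LFD to DIO-HFD was −0.08 ± 0.21 (adjusted p = 0.899), and the sign turned without CON-LFD replicate 2 (0.10) or without DIO-HFD replicate 1 (0.08). An annotated copy, Ndufb4c, matches 390 bases of its transcript at 100% identity, so reads of the pair may not be separable.

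The 2 members that are not subunits of complex I had different patterns. Ndufa4 (chr6:11900292-11907497, minus strand) was at 7213, 9724, 4581 and 5974 normalized counts in CON-LFD libraries, 3190, 4583, 5458 and 4092 in DIO-HFD, 6019, 6943, 5506 and 6963 in DIO-LFD, and 5065, 4805, 7384 and 6477 in DIO-VSG. DIO-LFD lay above DIO-HFD in every library, and the differences of −0.64, 0.57 and 0.46 (SE 0.22; adjusted p = 0.26, 0.496 and 0.386) were within the range of the subunits. Across the 16 libraries its r with the mean of the subunits was 0.984.

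Ndufa4l2 (chr10:127514967-127517154, plus strand), a paralog known as a target of hypoxia-inducible factor, was at 312, 359, 208 and 395 normalized counts in CON-LFD libraries, 194, 511, 667 and 377 in DIO-HFD, 253, 236, 278 and 367 in DIO-LFD, and 189, 128, 163 and 186 in DIO-VSG. Every DIO-VSG library was below every library of the other groups, and DIO-HFD replicate 1 was well under the other DIO-HFD libraries. The log2 difference was −1.27 ± 0.32 from DIO-HFD to DIO-VSG (limma adjusted p = 0.243), −0.91 from CON-LFD to DIO-VSG (adjusted p = 0.268), −0.76 from DIO-LFD to DIO-VSG (adjusted p = 0.509) and 0.36 from CON-LFD to DIO-HFD (adjusted p = 0.679). None of these passed the test. Its r with the mean of the subunits was 0.101 across the 16 libraries and 0.606 once group means were removed.

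The subunits varied together from library to library. Over the 16 libraries the 630 pairs of subunits had a median Pearson r of 0.885 (0.549 to 0.987), and of 0.883 once group means were removed. These are descriptions over libraries that share a normalization. DIO-HFD replicate 1 was the lowest of all libraries for 35 of the 36 subunits, and CON-LFD replicate 2 was the highest for 34, DIO-LFD replicate 4 for the other 2. Without DIO-HFD replicate 1 and CON-LFD replicate 2, the median r was 0.803 over 14 libraries (0.185 to 0.979). The subunit with the highest r with the mean of the others was Ndufb8 of the distal arm (0.994), and the one with the lowest was Ndufb4 (0.786).

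The mean of the 36 subunits, each centred on its own mean, was 0.17, 0.62, −0.30 and 0.01 in CON-LFD replicates 1 to 4, −0.61, −0.21, −0.08 and −0.32 in DIO-HFD, 0.00, 0.27, 0.07 and 0.25 in DIO-LFD, and −0.17, −0.21, 0.36 and 0.14 in DIO-VSG (log2 scale). All DIO-HFD libraries were below 0, and the DIO-LFD libraries lay between 0.00 and 0.27. CON-LFD and DIO-VSG each held libraries on both sides, and CON-LFD replicate 3 was lower than DIO-HFD replicates 2 and 3. DIO-VSG replicates 1 and 2 were below DIO-HFD replicate 3. The typical subunit had a within-group SD of 0.38 in CON-LFD, 0.24 in DIO-HFD, 0.18 in DIO-LFD and 0.27 in DIO-VSG.

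Levels between members were compared per kilobase of the principal transcript. Subunits ranged from 315 normalized counts per kilobase for Ndufb2 to 8130 for Ndufb8, with a median of 2670. Ndufb2 had the longest transcript chosen (4371 bases), so its value depends on that choice. Ndufb9 of the distal arm (6840) and Ndufa7 of the matrix arm (6080) were also high, and Ndufb4 (500), Ndufab1 (857) and Ndufc1 (973) low. Ndufa4 was at 9630, above all subunits, and Ndufa4l2 at 323. The median subunit was at 2940 per kilobase in CON-LFD, 2160 in DIO-HFD, 2940 in DIO-LFD and 2720 in DIO-VSG. Several levels carry an uncertainty of counting: 20 members overlap another annotated gene, 6 of them on the same strand, and 8 have a pseudogene copy of at least 95% identity over at least 150 bases.

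**Figure D4:**
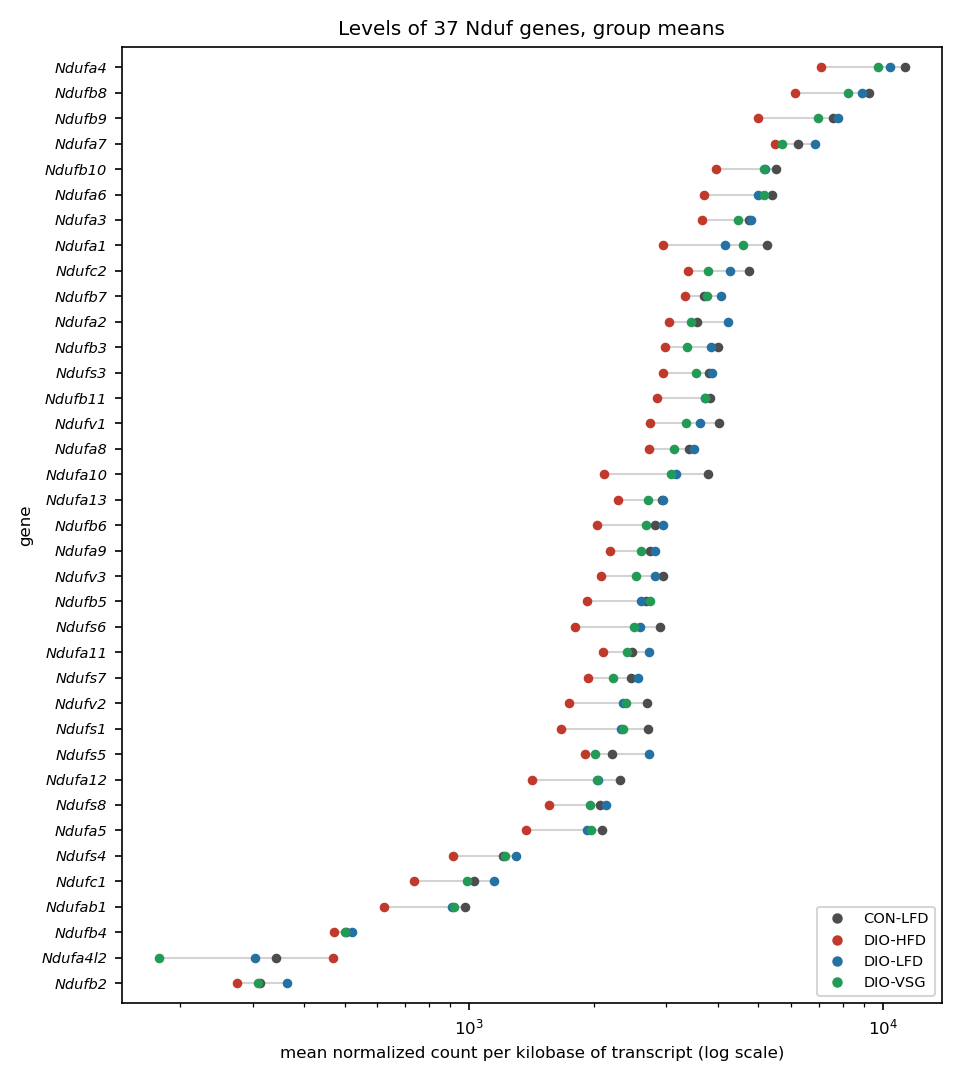
Level of 37 of the 38 members in normalized counts per kilobase of its principal transcript (log axis), with 1 point for the mean of each group of 4 libraries, in rows ordered by the mean over all libraries. Ndufa4 and Ndufb8 are at the top and Ndufb2, Ndufa4l2 and Ndufb4 at the bottom, and the order of genes spans a wider range than the difference between groups.

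Genes of other mitochondrial functions were taken from lists. Their counts at an unadjusted p under 0.05 are to be read against 7.66% of all genes that were lower in DIO-HFD than in CON-LFD at that p, 5.37% higher in DIO-LFD than in DIO-HFD and 5.05% higher in DIO-VSG than in DIO-HFD. Of 15 complex I assembly factors, all were lower in DIO-HFD than in CON-LFD (median −0.22, 4 at an unadjusted p under 0.05), 15 were higher in DIO-LFD than in DIO-HFD (0.23, 5) and 13 higher in DIO-VSG (0.14, 1). Ndufaf2, which helps complete the matrix arm, was at −0.54 (adjusted p = 0.237) in the first comparison and Tmem70, an assembly factor of complexes I and V, at −0.46 (adjusted p = 0.257). Of 39 subunits of complexes II to V, all 39 were lower in DIO-HFD than in CON-LFD (−0.51, 29), 39 higher in DIO-LFD (0.50, 28) and 38 higher in DIO-VSG (0.39, 14). Cox7c of complex IV was at −0.68 and Atp5c1 of the ATP synthase at −0.56 (both adjusted p = 0.176). Of 77 mitochondrial ribosomal proteins, 71 were lower in DIO-HFD (−0.16, 25), 74 higher in DIO-LFD (0.18, 22) and 65 higher in DIO-VSG (0.13, 9). Mrps18a was at −0.34 and Mrps15 at −0.50 (both adjusted p = 0.167). No gene of these lists passed limma after adjustment in the 3 comparisons.

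The size of the difference was close between complex I and complexes II to V. The mean of complexes II to V, centred gene by gene, was 0.15 ± 0.40 (SD, n = 4) in CON-LFD, −0.35 ± 0.20 in DIO-HFD, 0.15 ± 0.17 in DIO-LFD and 0.05 ± 0.29 in DIO-VSG, beside 0.13 ± 0.38, −0.30 ± 0.22, 0.15 ± 0.13 and 0.03 ± 0.27 for the complex I subunits. In each library the mean of complex I minus that of complexes II to V was between −0.05 and 0.09. A difference between the lists was not tested, and nothing here is called particular to complex I.

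Of the 8 regulators of mitochondrial genes, 6 were lower and 2 higher in DIO-HFD than in CON-LFD (median −0.27, 4 of the lower at an unadjusted p under 0.05), none past limma after adjustment. In DIO-LFD against DIO-HFD 5 were higher and 3 lower (median 0.05, 0 at that p), beside a median of 0.44 for the members, and in DIO-VSG against DIO-HFD 6 were higher and 2 lower (0.22, 2). Ppargc1a and Ppargc1b, coactivators of oxidative metabolism, were at −0.92 ± 0.35 and −0.83 ± 0.28 in DIO-HFD against CON-LFD (limma adjusted p = 0.297 and 0.260), and Esrra, the nuclear receptor ERRα, was at −0.42 ± 0.15 (adjusted p = 0.267). Ppargc1a had 408 to 761 normalized counts in CON-LFD libraries, 165 to 421 in DIO-HFD, 310 to 500 in DIO-LFD and 260 to 817 in DIO-VSG, so CON-LFD and DIO-HFD overlapped. Nrf1 (0.17, adjusted p = 0.609), Gabpa (−0.11, adjusted p = 0.662) and Tfam (0.01, adjusted p = 0.974), which act on nuclear and mitochondrial respiratory genes, lay nearer 0. The mitochondrial transcription factors Tfb1m and Tfb2m were at −0.18 (adjusted p = 0.619) and −0.36 (adjusted p = 0.364).

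Markers of cell types differed in direction. In DIO-HFD against CON-LFD, most thermogenic, adipocyte, skeletal muscle and mammary epithelial markers were lower, as the members were. Most B cell, T cell, macrophage and endothelial markers were higher. Of 11 thermogenic adipocyte genes, 11 were lower in DIO-HFD than in CON-LFD (median −2.67, range −6.07 to −0.35, 7 at an unadjusted p under 0.05 and 0 after adjustment). All 11 were higher in DIO-LFD (1.85, 3 at that p) and in DIO-VSG (1.93, 2) than in DIO-HFD. The shares of all genes in these directions at that p were 7.66%, 5.37% and 5.05%. The sum of the 11 was 3907 to 69217 normalized counts in CON-LFD libraries, 1256 to 4969 in DIO-HFD, 7170 to 13889 in DIO-LFD and 3099 to 46484 in DIO-VSG. Ucp1, the uncoupling protein of brown and beige fat, was at −6.07 in DIO-HFD against CON-LFD (adjusted p = 0.254) and ranged from 292 to 24043 in CON-LFD, 4.63 to 226 in DIO-HFD, 114 to 2098 in DIO-LFD and 15.3 to 21836 in DIO-VSG. Cox8b (−3.09, adjusted p = 0.182) and Cidea (−4.15, adjusted p = 0.213) were lower too. The centred mean of the list was highest in CON-LFD replicate 2 (3.61), DIO-VSG replicate 3 (2.97) and DIO-VSG replicate 4 (1.46) and lowest in DIO-HFD replicate 1 (−3.09). CON-LFD replicate 2 and DIO-HFD replicate 1 were also the highest and the lowest library for the complex I subunits. The same libraries stood out in other lists. The centred mean of the B cell markers was lowest in CON-LFD replicate 2 (−5.76) and highest in DIO-HFD replicate 1 (2.34). That of the adipocyte markers was lowest in DIO-HFD replicate 1 (−1.08). The part of any of these cells in the result was not tested.

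Of 12 adipocyte markers, 10 were lower in DIO-HFD than in CON-LFD (median −0.48), 11 higher in DIO-LFD than in DIO-HFD (0.40) and 7 higher in DIO-VSG (0.00). Of 12 skeletal muscle markers, 12 were lower in DIO-HFD than in CON-LFD (−1.88), 12 higher in DIO-LFD than in DIO-HFD (1.99) and 11 higher in DIO-VSG (1.63). Without the 3 libraries highest in muscle markers, the members' median was −0.48 in DIO-HFD against CON-LFD, 0.42 in DIO-LFD against DIO-HFD and 0.42 in DIO-VSG against DIO-HFD, with 37 members on the same side in each. The count at an unadjusted p under 0.05 in DIO-LFD against DIO-HFD was then 8, beside 6.43% of all genes. The B cell markers, averaged per library into a score, had a median log2 fold change of 1.15 in DIO-HFD against CON-LFD, of 1.54 in DIO-LFD against DIO-HFD and of 2.78 in DIO-VSG against DIO-HFD. With that score added to the fit, the members' medians were −0.34, 0.53 and 0.52 in the 3 comparisons, and 20, 36 and 35 members were at an unadjusted p under 0.05, beside 16.1%, 15.9% and 10.2% of all genes. Mammary epithelial markers were lower in 10 of 10 cases in DIO-HFD against CON-LFD (−0.75), macrophage markers higher in 9 of 10 (0.39), T cell markers higher in 10 of 10 (0.65) and endothelial markers higher in 6 of 8 (0.31). In DIO-VSG against DIO-HFD, T cell markers were higher in 10 of 10 (2.20), macrophage markers lower in 10 of 10 (−0.67), endothelial markers lower in 8 of 8 (−0.51, 4 at an unadjusted p under 0.05) and mammary epithelial markers higher in 8 of 10 (0.19). Of all 21218 genes tested, 1723 were lower at that p in this comparison. In DIO-LFD against DIO-HFD, mammary epithelial markers were higher in 8 of 10 (0.65, 5 at an unadjusted p under 0.05), T cell markers higher in 10 of 10 (0.83), macrophage markers lower in 9 of 10 (−0.26) and endothelial markers lower in 5 of 8 (−0.03). There 5.37% of all genes were higher at that p. The part of these cell types in the result was not tested.

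**Figure D5:**
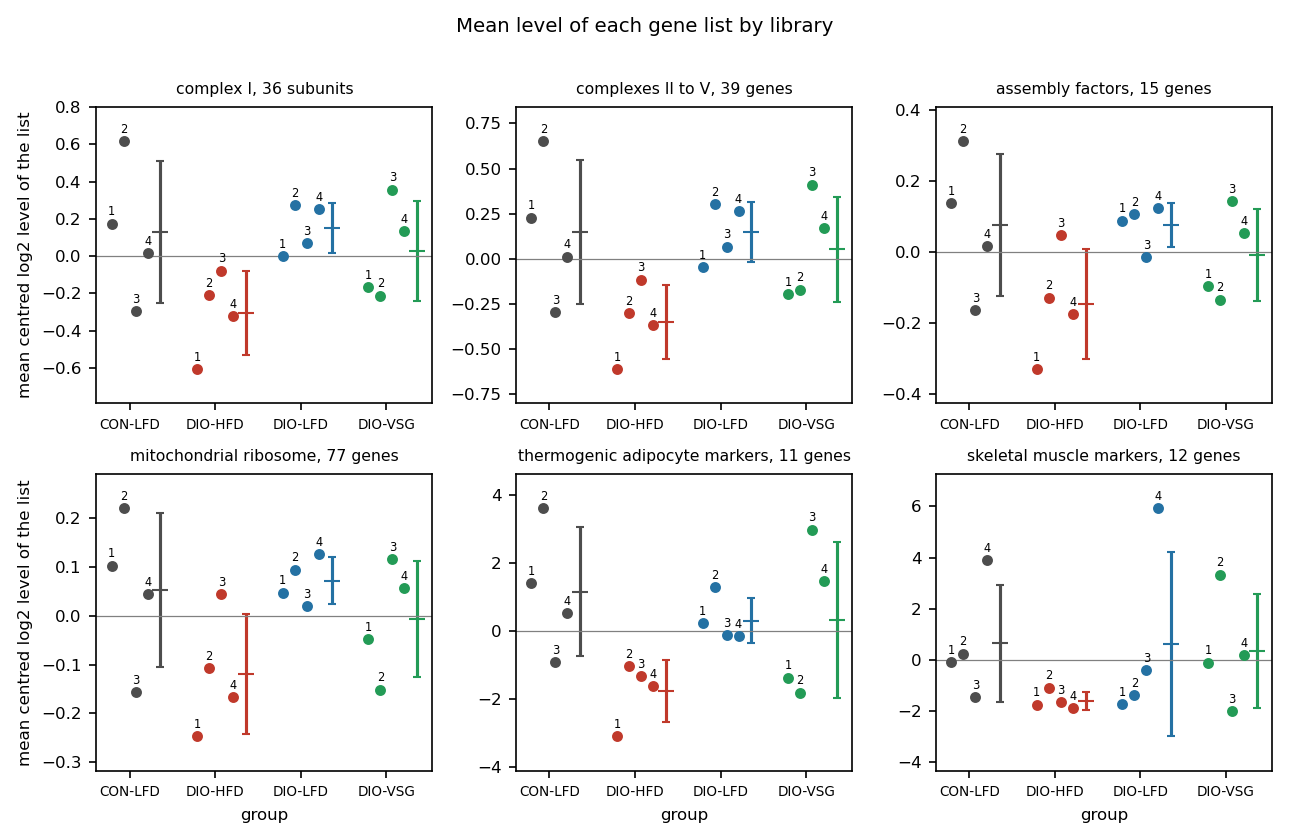
Mean level of the complex I subunits and of other gene lists in each library, as centred log2(normalized count + 1), by group, with points numbered by replicate and the group mean and SD beside them (vertical scales differ between panels). The mean of DIO-HFD is the lowest for complex I, complexes II to V and thermogenic adipocyte genes. DIO-VSG replicates 1 and 2 lie within the DIO-HFD range for these lists, and CON-LFD replicate 3 does for complex I and complexes II to V. Single libraries of CON-LFD, DIO-LFD and DIO-VSG are high in muscle markers.

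Weights that count less the libraries far from their group made many of these differences pass. With limma's library weights, 26 members passed an adjusted p of 0.05 in DIO-HFD against CON-LFD (19.8% of all genes did), 27 in DIO-LFD against DIO-HFD (8.54%), 26 in DIO-VSG against DIO-HFD (17.6%) and 36 in DIO-HFD against the mean of the other groups (20.5%). The weight of DIO-HFD replicate 4 was then 10.9, and those of the other DIO-HFD libraries were 0.222 to 0.484, so DIO-HFD replicate 4 set most of its group's mean in that fit.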

How the data were processed

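Total RNA was sequenced as stranded paired-end libraries (Illumina TruSeq Stranded Total RNA kit). The authors deposited 1 matrix of log2-scale values from DESeq2's variance-stabilizing transformation. The submitters' processing notes name TopHat2 (2.0.7), HTSeq (0.5.3p9) and DESeq2 with mm10, whereas the study's methods describe STAR and salmon; which made the matrix, and whether counting used strand, is not given in the sources used here. The transformation was inverted to normalized counts, and whole reads were recovered from the steps between values. A gene was tested (21218 of 23179) where 4 or more libraries reached 10 normalized counts. limma's trend method (version 3.58.1, under R 4.3.3) was fitted once to all 16 libraries, on the log2 of the normalized count plus a pseudocount of 1, with group as the only term, 12 residual degrees of freedom and Benjamini-Hochberg adjustment within each of 7 comparisons. A count test was not run as the main test, because the matrix holds no counts as deposited; limma-voom on the recovered reads was an alternative. A fold change on the log2(value + 1) scale understates that of low genes. The fit was tested on simulated data.

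The symbol rule used no measured value, but this family, its members and the other lists were chosen with earlier results of these data known. By the rule for named genes, values per library are given for the core subunits (6 of the 7), the 3 members with the most negative and the 3 with the most positive log2 fold change from CON-LFD to DIO-HFD, and Ndufa4 and Ndufa4l2. The other core subunit is counted in the totals and is not reported here by itself. All regulators are given in values, and of the other lists the 2 genes of lowest p in that comparison may be named; Ucp1 was added after its values were seen. Gene positions and transcript lengths are from GENCODE on GRCm38, and promoter windows from RefSeq on GRCm38.p6. Copies were searched with BLAST 2.17.0. Tables were handled in Python 3.11.15 with pandas 2.3.3, numpy 2.4.6 and scipy 1.17.1, and figures drawn with matplotlib 3.10.9. Alternatives were other scalings, pseudocounts, filters, limma-voom, library weights, a replicate block, a B cell covariate, only the groups compared, each library left out, and, chosen after seeing the data, the 3 libraries highest in muscle markers left out.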

Additional observations from a re-analysis of the deposited data

Results flagged for a closer look

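Over 104 checks of a group of 4 libraries for a single one far from the rest, 1 was past Dixon's critical value, and chance alone gives about 1 in 20. The mean of the 10 B cell markers in DIO-LFD replicate 1 was −0.15 on the centred log2 scale, the lowest of DIO-LFD, where the others were at 0.90 to 1.06. The gap was 0.866 of the group's range. The mean of the complex I subunits in that library was 0.00, also the lowest of its group.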

How the results depend on the processing

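Of 775 settings of 26 counts and medians, 742 left the value within 1.5 times, or within the replicate SD of the members' mean (0.27). Part of this was fixed in advance, so the count is no measure of stability. Leaving out a library of a group not compared cannot change the fold changes between 2 groups. The replicate block is balanced and gives the same medians. Counts of adjusted calls were 0 in the main fit and mostly stayed at 0. Medians moved by less than that SD: −0.58 to −0.25 in DIO-HFD against CON-LFD, 0.35 to 0.53 in DIO-LFD against DIO-HFD and 0.23 to 0.52 in DIO-VSG against DIO-HFD, with 35 to 37, 37 and 34 to 37 members on the same side. The smaller medians changed sign: −0.23 to 0.16 in DIO-VSG against CON-LFD, −0.23 to 0.01 in DIO-VSG against DIO-LFD and −0.10 to 0.21 in DIO-LFD against CON-LFD. With library weights, members past an adjusted p of 0.05 rose from 0 to 26 in DIO-HFD against CON-LFD (19.8% of all genes). They rose to 27 in DIO-LFD against DIO-HFD (8.54%) and to 26 in DIO-VSG against DIO-HFD (17.6%). They also rose from 0 to 1 in DIO-VSG against CON-LFD (19.9%), to 36 in DIO-HFD against the low-fat-fed groups (20.5%) and to 35 in the F test (34.8%). Members at an unadjusted p under 0.05 numbered 34 in DIO-HFD against CON-LFD and 34 in DIO-VSG against DIO-HFD (37.5% and 33.9% of all genes). Fitting only the groups compared gave 1 adjusted call in DIO-VSG against DIO-LFD, where it called 7.81% of all genes. Scaling to library totals gave 13 members at an unadjusted p in DIO-HFD against CON-LFD (16.6% of all genes) and 16 members lower in DIO-VSG against CON-LFD. The B cell covariate gave 35 members at an unadjusted p in DIO-VSG against DIO-HFD, 36 higher in DIO-LFD against CON-LFD and 1 lower in DIO-VSG against CON-LFD. Without the 3 libraries highest in skeletal muscle markers, an alternative chosen after seeing the data, 8 members were at an unadjusted p in DIO-LFD against DIO-HFD, 18 were lower in DIO-VSG against DIO-LFD and 12 higher in DIO-LFD against CON-LFD. The cause of these shifts was not tested.

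With each library left out in turn, adjusted calls were 0 to 1 in DIO-HFD against CON-LFD. Members at an unadjusted p were 11 to 30 in DIO-HFD against CON-LFD, 8 to 34 in DIO-LFD against DIO-HFD, 2 to 19 in DIO-VSG against DIO-HFD and 15 to 34 in DIO-HFD against the low-fat-fed groups. All genes at that p were 8.53% to 19.7%, 5.95% to 9.22%, 7.48% to 27.6% and 9.37% to 15.1%. The lowest values of members came without CON-LFD replicate 2, DIO-HFD replicate 1, DIO-VSG replicate 3 and DIO-HFD replicate 1. Members higher in DIO-LFD than in CON-LFD were 8 to 33, and those lower in DIO-VSG than in CON-LFD 9 to 38. Of 1260 settings of 42 single-gene results, 5 reversed, all for Ndufb4: in DIO-HFD against CON-LFD it was 0.062 with library totals, 0.017 with the B cell covariate, and −0.201 to 0.103 with 1 library left out (above 0 without CON-LFD replicate 2 or DIO-HFD replicate 1), and in DIO-VSG against DIO-HFD it was −0.054 to 0.226 with 1 library left out (below 0 without DIO-HFD replicate 1). Of the 27 single-gene results that became calls, 26 did so under library weights.

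Replicate numbers gave no pairing: of 24 pairs of libraries with the same number, 9 had deviations correlated above 0.1 (−0.609 to 0.534), and 7 of 16 libraries correlated best with their own number. With the replicate block, adjusted calls of members stayed at 0. Members at an unadjusted p numbered 19, 28 and 11 in the first 3 comparisons, beside 21, 28 and 12 without the block. With the block, 12%, 7.85% and 11.8% of all genes were at that p in either direction.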

Other observations

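The citrate cycle, which supplies the NADH that complex I oxidizes, had the same sign as the respiratory chain. All 13 of its genes were lower in DIO-HFD than in CON-LFD (median log2 fold change −0.73), each at an unadjusted p under 0.05 (7.66% of all genes were lower at that p) and none after adjustment by limma (adjusted p 0.231 to 0.375). Idh3b, of NAD-dependent isocitrate dehydrogenase, was at 6532 to 16384 normalized counts in CON-LFD and 4647 to 5590 in DIO-HFD (−0.85 ± 0.25 SE, adjusted p = 0.231), ranges that did not overlap. Citrate synthase, Cs, was at 15659 to 32116 and 10347 to 17406 (−0.76 ± 0.24, adjusted p = 0.246), which overlapped. The 13 genes were higher in DIO-LFD (median 0.49) and in DIO-VSG (0.38) than in DIO-HFD, with 3 and 2 at an unadjusted p under 0.05, where 5.37% and 5.05% of all genes were higher at that p.

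Of 10 genes of mitochondrial import and the outer membrane, 8 were lower in DIO-HFD than in CON-LFD, with a median of −0.24 and 2 at an unadjusted p under 0.05. These were Timm44, a part of the inner membrane import motor (−0.32, adjusted p = 0.313), and Vdac1, the outer membrane channel (−0.43, adjusted p = 0.371).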
